A study of Mus musculus with 23 samples.

Results

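These data address whether embryoid bodies (EBs) that lack Trim33 respond to activin as strongly as wild-type (WT) EBs do. EBs are the aggregates that mouse embryonic stem cells form in suspension. The comparison used 8 RNA-seq libraries out of the 23 samples of the study, chosen as all the EB columns of its expression table, and the other samples (ATAC-seq, ChIP-seq and stem cell RNA-seq) were not analysed here. The libraries form 4 groups of 2, namely Trim33-null EBs with activin A, Trim33-null EBs with SB431542, WT EBs with activin A and WT EBs with SB431542. All were made from stem cells on a C57Bl/6J background, grown in 15% serum without leukaemia inhibitory factor and collected at day 2.5. Activin A was given at 50 ng/ml for 2 h. SB431542 was given at 10 µM in the design text and at 10 mM in the treatment protocol, for 1 h by the design text and 2 h by the sample titles, and this was not resolved. There is no untreated EB group among the 8 libraries, so every response below is activin against receptor inhibition. The table columns carry a numeral, I or II, and an activin and an SB431542 library of the same genotype and numeral were treated as a pair. The titles number the Trim33-null libraries 1 and 4, which cannot be matched to those numerals, and nothing in the labels says that libraries came from separate cultures or clones, so the p-values reflect the spread of these libraries alone, which may be technical.

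Activin and Nodal bind receptor kinases that phosphorylate SMAD2 and SMAD3, which enter the nucleus with SMAD4 and act on target genes with partners such as FOXH1. SB431542 blocks the type I receptor kinases of this pathway. TRIM33 binds activated SMAD2 and SMAD3 and reads histone H3 marks, and it is known in mouse stem cells for its part in the induction of the mesendoderm genes Gsc and Mixl1. The pathway also induces its own inhibitors, among them the secreted antagonists Lefty1 and Lefty2 and the intracellular inhibitors Smad7, Skil and Pmepa1.

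The targeted gene followed its labels. Trim33 had 2.23 and 2.69 FPKM (fragments scaled for transcript length and library size) in Trim33-null EBs with activin, 2.38 and 2.83 in Trim33-null EBs with SB431542, 11.4 and 10.1 in WT EBs with activin and 11.0 and 11.1 in WT EBs with SB431542, and a residual transcript level does not show protein. The lines differ in more than Trim33: Eif2s3y, a Y-linked gene, ran from 0.0922 to 0.369 FPKM in Trim33-null and from 9.49 to 10.5 FPKM in WT libraries, so genotype and line cannot be told apart. All 6 epiblast markers were present, with a summed 428 to 542 FPKM in Trim33-null and 441 to 551 FPKM in WT libraries. Of the 4 primitive streak markers only Mesp1 stayed below 1 FPKM in every library. Their sum was lower in Trim33-null EBs under each treatment, at 5.85 and 11.4 FPKM with activin and 2.59 and 6.11 with SB431542, against 19.0 and 30.3 FPKM in WT EBs with activin and 6.85 and 14.3 with SB431542. The markers did not all share this. Eomes was lower in Trim33-null EBs under each treatment and Mixl1 under activin only, while T overlapped between the genotypes. T had 5.45 and 3.10 FPKM in Trim33-null and 5.30 and 4.05 in WT EBs with activin. With SB431542 it had 3.68 and 1.42 FPKM in Trim33-null and 4.57 and 1.60 in WT EBs. In bulk libraries fewer cells of a type and less RNA per cell cannot be told apart, and the part of the difference in the sum in the interactions was not tested. Summed FPKM was 236760 to 251652 per library and 10565 to 10847 genes reached 1 FPKM.

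No gene's activin response differed between Trim33-null and WT EBs at the threshold, and most of the larger responses were smaller in Trim33-null EBs. A gene's response is the difference in log2(FPKM + 1) between the activin and the SB431542 library of a pair, and the interaction is the mean Trim33-null response minus the mean WT response. Over 11317 genes, those with at least 1 FPKM in at least 2 of the 8 libraries, limma with Benjamini-Hochberg (BH) adjustment called 0 interactions (0% of genes tested) at 0.05. The smallest adjusted p was 0.665, and 277 genes had an unadjusted p under 0.05, where 566 would be 5% of the genes. The median standard error (SE) of an interaction was 0.07 on the log2 scale. An exact permutation test of 2 pair differences against 2 gives a two-sided p of 0.333 at best, so single genes rest on the spread pooled over genes. Without the WT pair II, 1 gene passed, Gsc, at -1.35 (limma adjusted p = 0.0216), and without the WT pair I Gsc had -0.99 (limma adjusted p = 0.0899). With a pair left out its genotype is a single pair, assumed to vary like the other genotype, which alone gives the spread. Libraries of a numeral also moved together across the genotypes. A numeral by treatment term, added after seeing the data, gave 0 calls with 534 unadjusted p-values under 0.05 in limma. The adjusted p of Gsc was then 0.292 (limma).

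By the same fit, 78 genes rose with activin in Trim33-null EBs (0.689% of genes tested) and 5 fell (0.0442%). In WT EBs 114 rose (1.01%) and 9 fell (0.0795%). Averaged over the genotypes, 213 rose (1.88%) and 39 fell (0.345%). The average and interaction estimates are independent in this balanced design, but their tests use the same spread of the pairs. A call on the average can therefore favour genes whose pairs agree. All genes are thus not a matched background for the order of pairs or the interaction p-values of the called genes. The median interaction SE was 0.0745 in the 213 and 0.0704 over all genes. Of the 213, 73 genes had been called in each genotype separately. The Trim33-null total of 83 moved to 18 without the Trim33-null pair I, to 15 without the Trim33-null pair II, and to 221 without either WT pair. The WT total of 123 moved to 189 without the WT pair I, and the average total of 252 moved to 114, 94 and 385 without the Trim33-null pair I, the Trim33-null pair II and the WT pair I. A total without a pair rests on the spread of the other genotype's pairs alone. Without the pairing as a block the 3 totals were 13, 25 and 52.

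**Figure D1:**
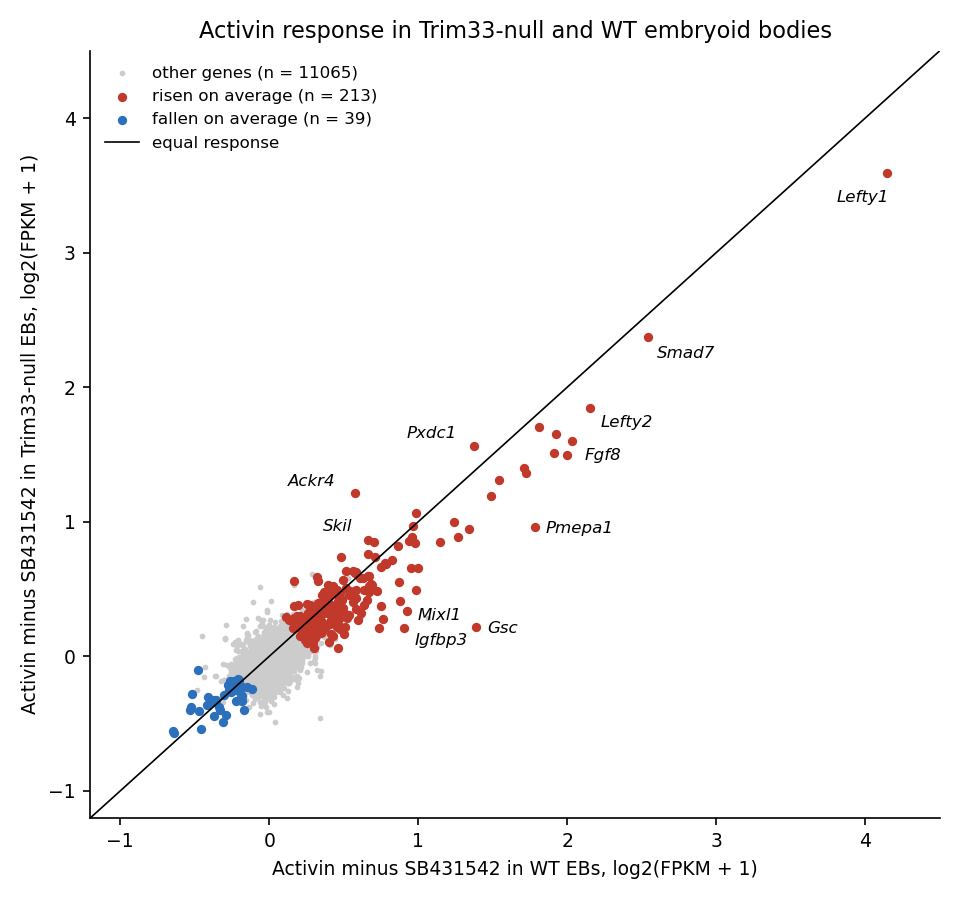
Each point is a gene, placed by its activin minus SB431542 difference in log2(FPKM + 1) in Trim33-null EBs (vertical axis) and in WT EBs (horizontal axis), with the 213 genes risen on average in red, the 39 fallen in blue and a line of equal response. Most of the larger red points, Lefty1, Lefty2, Fgf8, Pmepa1 and Gsc among them, lie below the line, and Ackr4 and Pxdc1 lie above it.

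The smallest interaction p-values belonged to Pmepa1, Gsc, Igfbp3, Ackr4 and Pcdh8. The last 2 are outside the rule by which genes were chosen and were added after their values were seen. Gsc, a homeobox gene of the organizer and mesendoderm, had 0.494 and 0.474 FPKM in Trim33-null EBs with activin and 0.254 and 0.295 with SB431542, against 2.71 and 1.62 FPKM in WT EBs with activin and 0.250 and 0.134 with SB431542. The 2 WT activin libraries stood above all 6 others, and the SB431542 values of the genotypes overlapped. Activin over SB431542 was 1.95-fold and 1.61-fold in the Trim33-null pairs, against 10.8-fold and 12.1-fold in the WT pairs. The interaction was -1.17 ± 0.13 (SE, 95% confidence interval -1.48 to -0.86, limma unadjusted p = 0.000118, adjusted p = 0.665). Gsc entered the test only through its WT activin libraries, the 2 above 1 FPKM, so its presence among the tested genes is not independent of that pattern.

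Pmepa1, which encodes a membrane protein that limits SMAD signalling, had 4.63 and 8.78 FPKM in Trim33-null EBs with activin and 1.68 and 4.41 with SB431542, against 5.31 and 6.41 FPKM in WT EBs with activin and 0.853 and 1.13 with SB431542. Here the activin levels overlapped and the Trim33-null levels under the inhibitor were higher than both WT ones. The ratio within a pair was 2.76 and 1.99 in Trim33-null EBs and 6.23 and 5.66 in WT EBs, and the interaction was -0.82 ± 0.09 (SE, 95% confidence interval -1.03 to -0.61, limma unadjusted p = 9.99e-05, adjusted p = 0.665). Igfbp3, whose product carries insulin-like growth factors in the blood and tissues, had 16.9 and 18.5 FPKM in Trim33-null EBs with activin and 13.3 and 17.4 with SB431542, against 12.4 and 14.0 FPKM in WT EBs with activin and 6.24 and 6.96 with SB431542. Its Trim33-null levels under activin were above all WT levels, and its ratios of 1.27 and 1.07 in Trim33-null EBs were below the 1.99 and 2.01 of WT EBs. Igfbp3 rose in WT EBs (0.90 ± 0.06, limma adjusted p = 0.00359), its Trim33-null value was 0.21 ± 0.06 (limma adjusted p = 0.409), and the interaction was -0.70 ± 0.09 (SE, limma adjusted p = 1). The 3 genes thus reached a smaller response at different levels: Gsc was lower in Trim33-null EBs under activin, Pmepa1 was higher under SB431542, and Igfbp3 was higher under both.

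Ackr4, a chemokine scavenger receptor gene, went the other way. It had 2.60 and 2.68 FPKM in Trim33-null EBs with activin and 0.571 and 0.563 with SB431542, against 0.616 and 0.959 FPKM in WT EBs with activin and 0.170 and 0.223 with SB431542. The 2 Trim33-null activin libraries stood above all others, and each Trim33-null value exceeded both WT values of the same treatment. Those 2 libraries were also the only ones above 1 FPKM, so Ackr4, like Gsc, entered the test only through the group in which it was high. The interaction was 0.64 ± 0.09 (SE, limma unadjusted p = 0.000503, adjusted p = 1), while the ratios of 4.55 and 4.77 in Trim33-null pairs were close to the 3.63 and 4.31 of WT pairs. Pcdh8, a protocadherin gene, had 0.732 and 0.583 FPKM in Trim33-null EBs with activin and 0.286 and 0.204 with SB431542, against 1.53 and 1.51 FPKM in WT EBs with activin and 0.380 and 0.363 with SB431542. Its WT activin libraries were the highest and the only ones above 1 FPKM, and its interaction was -0.47 ± 0.07 (SE, limma unadjusted p = 0.000573, adjusted p = 1).

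The promoters of these leading genes are shown because their interactions stood first by p, and the SMAD pathway acts at DNA through short elements. RefSeq (GRCm38.p6, while the expression table was made on mm9) gave 300 bases for 4 of the 5 genes, all but Pmepa1, spanning the annotated start. Capitals mark each match to the SMAD element CAGAC or its reverse complement GTCTG. The FOXH1 element AATNNACA was also searched on both strands. Each sequence is on the minus strand, written 5′ to 3′.
Gsc, chr12:104473187-104473486: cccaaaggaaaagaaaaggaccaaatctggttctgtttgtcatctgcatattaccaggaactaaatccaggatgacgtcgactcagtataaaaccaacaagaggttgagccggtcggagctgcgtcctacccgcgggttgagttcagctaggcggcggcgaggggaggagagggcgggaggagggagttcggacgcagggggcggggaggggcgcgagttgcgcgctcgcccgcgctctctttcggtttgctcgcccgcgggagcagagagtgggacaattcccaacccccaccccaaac
Igfbp3, chr11:7213874-7214173: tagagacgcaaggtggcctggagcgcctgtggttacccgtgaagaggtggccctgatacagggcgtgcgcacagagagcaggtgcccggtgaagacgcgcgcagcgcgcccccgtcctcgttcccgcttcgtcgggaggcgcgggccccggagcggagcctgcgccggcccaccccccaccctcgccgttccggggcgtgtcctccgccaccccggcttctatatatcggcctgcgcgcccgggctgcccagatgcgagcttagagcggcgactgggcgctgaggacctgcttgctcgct
Pcdh8, chr14:79771263-79771562: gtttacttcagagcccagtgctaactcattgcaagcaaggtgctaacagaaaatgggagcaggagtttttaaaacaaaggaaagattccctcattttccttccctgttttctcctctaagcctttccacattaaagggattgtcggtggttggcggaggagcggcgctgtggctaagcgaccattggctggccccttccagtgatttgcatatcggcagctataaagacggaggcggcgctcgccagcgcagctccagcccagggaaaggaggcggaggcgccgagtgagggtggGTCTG
Ackr4, chr9:104126594-104126893: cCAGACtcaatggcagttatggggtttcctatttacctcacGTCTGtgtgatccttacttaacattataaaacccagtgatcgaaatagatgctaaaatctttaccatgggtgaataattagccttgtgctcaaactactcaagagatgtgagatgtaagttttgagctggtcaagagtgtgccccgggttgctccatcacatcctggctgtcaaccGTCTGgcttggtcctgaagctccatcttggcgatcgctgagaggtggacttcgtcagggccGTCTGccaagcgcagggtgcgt

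In these windows Ackr4 held 4 SMAD elements and Pcdh8 held 1, and Gsc and Igfbp3 held 0. The FOXH1 element was found in 0 of the 4. Of 32817 mouse promoters of this length, 49.6% held the SMAD element and 12.2% the FOXH1 element, and no matches to the different motifs overlapped here. A match or its absence describes these letters only.

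**Figure D2:**
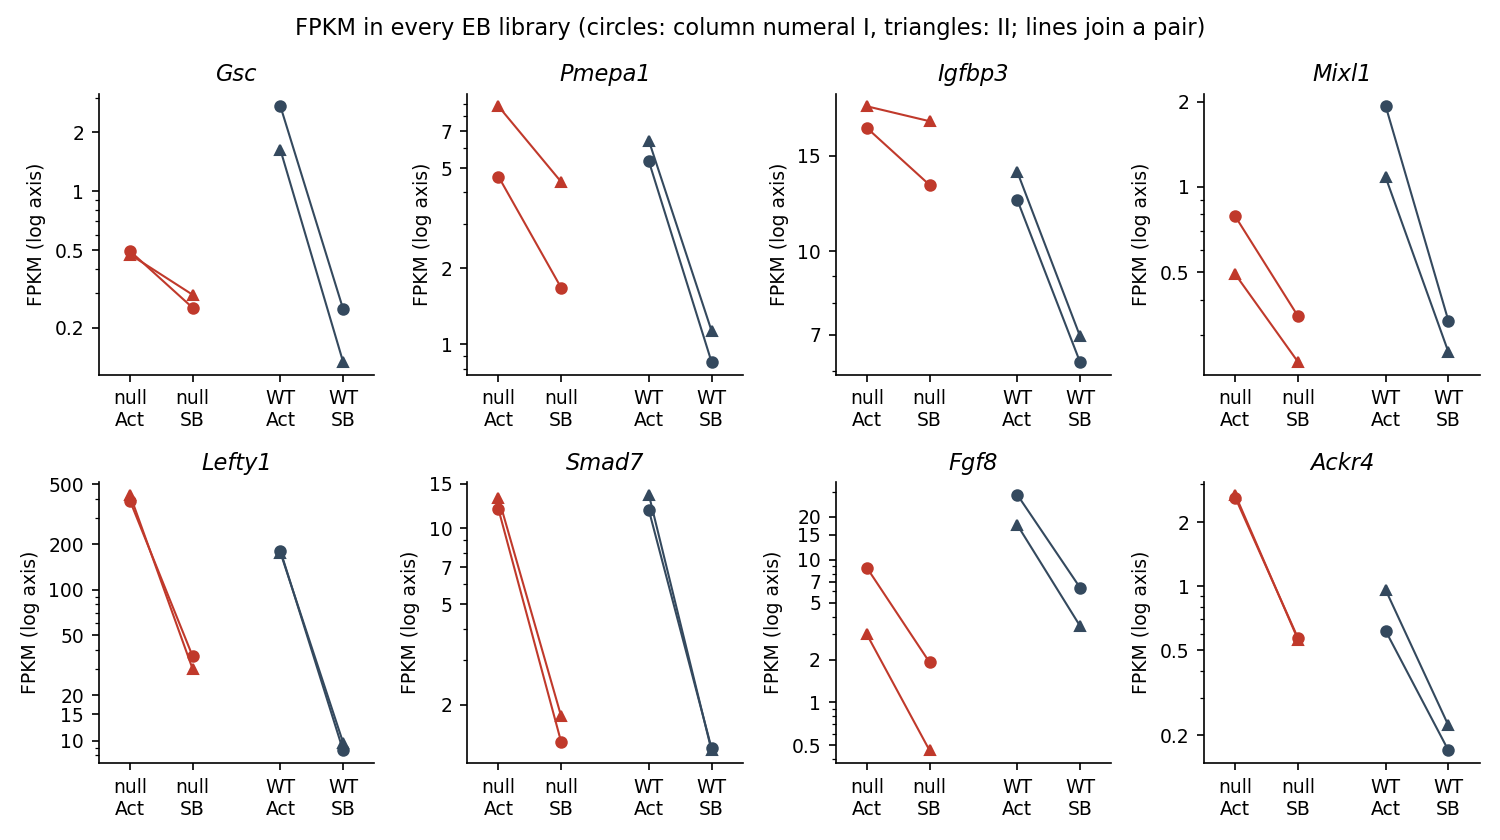
FPKM on a log axis in each of the 8 EB libraries for 8 genes, with Trim33-null libraries in red left of WT libraries in dark blue, activin (Act) left of SB431542 (SB), circles for column numeral I, triangles for II and a line joining each pair. The Trim33-null lines are flatter than the WT lines for Gsc, Pmepa1, Igfbp3 and Mixl1, and near parallel to them for Smad7 and Fgf8.

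Among the ligands and extracellular regulators of the pathway, the secreted antagonist Lefty1 had the largest response. Lefty1 had 389 and 426 FPKM in Trim33-null EBs with activin and 36.2 and 29.8 with SB431542, against 181 and 177 FPKM in WT EBs with activin and 8.63 and 9.73 with SB431542. Trim33-null levels were higher than WT levels under each treatment, without overlap. Lefty1 rose by 3.59 in Trim33-null and 4.15 in WT EBs, an interaction of -0.56 ± 0.14 (SE, 95% confidence interval -0.91 to -0.20, limma unadjusted p = 0.00877, adjusted p = 1). On the linear scale the order turned round: the increase was 375 FPKM in Trim33-null EBs and 170 FPKM in WT EBs. Lefty2, its neighbour in function, had 86.1 and 75.7 FPKM in Trim33-null EBs with activin and 25.6 and 18.4 with SB431542, against 42.0 and 38.4 FPKM in WT EBs with activin and 7.48 and 9.07 with SB431542. It too was higher in Trim33-null EBs throughout, its increases were 58.9 FPKM in Trim33-null and 31.9 FPKM in WT EBs, and its interaction of -0.31 ± 0.15 (SE) came from pair differences that overlapped.

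Nodal itself had 44.2 and 43.0 FPKM in Trim33-null EBs with activin and 26.9 and 19.8 with SB431542, against 40.6 and 46.7 FPKM in WT EBs with activin and 26.1 and 18.4 with SB431542. The genotypes overlapped under each treatment, and the interaction was -0.07 with a 95% confidence interval of -0.65 to 0.51, wide because the pairs I and II differed within each genotype. They differed the same way in both: the ratio was 1.65 in Trim33-null and 1.56 in WT EBs for pair I, and 2.17 in Trim33-null and 2.53 in WT EBs for pair II. With the numeral by treatment term the SE of 0.24 became 0.078. Tdgf1, the Nodal co-receptor, rose in each genotype, by 0.69 in Trim33-null and 0.78 in WT EBs (limma adjusted p = 0.00269 and 0.00119), and its interaction interval of -0.22 to 0.05 was narrow. The activin-binding protein Fst had 16.3 and 8.07 FPKM in Trim33-null EBs with activin and 20.8 and 7.93 with SB431542, against 22.4 and 20.9 FPKM in WT EBs with activin and 36.8 and 24.0 with SB431542, and its response passed no test. Of the 13 listed ligands and regulators 9 were tested. Of these, 3 rose in Trim33-null EBs, 3 in WT EBs and 4 on average, and 7 had an interaction below 0 with a median of -0.09. Over all genes tested 64.8% had an interaction below 0, with a median of -0.02, and under median-of-ratios scaling 53.6% were below 0, with a median of -0.0052.

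The receptors and SMADs showed no called change. Of 8 receptor genes 7 were tested with 0 calls in either genotype, 5 interactions were below 0, and the median was -0.01. Acvr1b, the type I receptor of activin and Nodal, had an interaction of -0.07 (95% confidence interval -0.22 to 0.08). All 9 SMADs and nuclear partners were tested with 0 calls, 8 interactions were below 0 and the median was -0.02. Smad2 had -0.08 (95% confidence interval -0.25 to 0.10) and Crebbp, an acetyltransferase that SMADs recruit, had -0.06 (95% confidence interval -0.21 to 0.09). Trim33 itself passed no test of the activin response, with an interaction of -0.02 (95% confidence interval -0.21 to 0.17).

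The intracellular inhibitors divided. Smad7, which blocks the receptors, had 11.9 and 13.2 FPKM in Trim33-null EBs with activin and 1.43 and 1.81 with SB431542, against 11.8 and 13.5 FPKM in WT EBs with activin and 1.35 and 1.32 with SB431542. The genotypes overlapped under activin, and the 2 Trim33-null inhibitor values were slightly above the WT ones. Smad7 rose by 2.37 in Trim33-null and 2.55 in WT EBs (limma adjusted p = 0.00032 and 0.00014), and the interaction was -0.17 with a 95% confidence interval of -0.38 to 0.04. Skil, a SMAD co-repressor, leaned the other way, rising by 0.87 in Trim33-null and 0.67 in WT EBs with an interaction of 0.20 (95% confidence interval -0.03 to 0.43), and both its Trim33-null responses exceeded both WT ones. The related co-repressor Ski rose by 0.37 in Trim33-null and 0.39 in WT EBs, with an interaction interval of -0.16 to 0.13. Tgif1, a homeobox co-repressor, had 0.17 in Trim33-null and -0.02 in WT EBs and did not pass in either. Smad6, an inhibitor better known from BMP signalling, rose in WT EBs by 0.47 (limma adjusted p = 0.0309) and had 0.28 in Trim33-null EBs (limma adjusted p = 0.186). Of 11 such genes 10 were tested, with 4 rises in Trim33-null EBs, 5 in WT EBs and 5 on average. Their interactions had a median of -0.03, 6 of 10 were below 0, and Pmepa1 was the lowest.

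Of the 19 Nodal/activin target genes 16 were tested, and the other 3, Cer1, Sox17 and Lhx1, were below the filter. Of the 16, 10 rose in Trim33-null EBs, 12 in WT EBs and 13 on average, and the median response was 0.89 in Trim33-null and 1.33 in WT EBs. Their interactions had a median of -0.29 and 13 of 16 were below 0. In 10 of 16 both Trim33-null pair differences lay below both WT ones, which held for 19.6% of all genes, and in 1 of 16 both lay above, which held for 7.64% of all genes. Some members, Gsc and Mixl1 among them, passed the filter only through libraries in which they were high, and this list was chosen with earlier results of these data known, so the counts are a description.

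**Figure D3:**
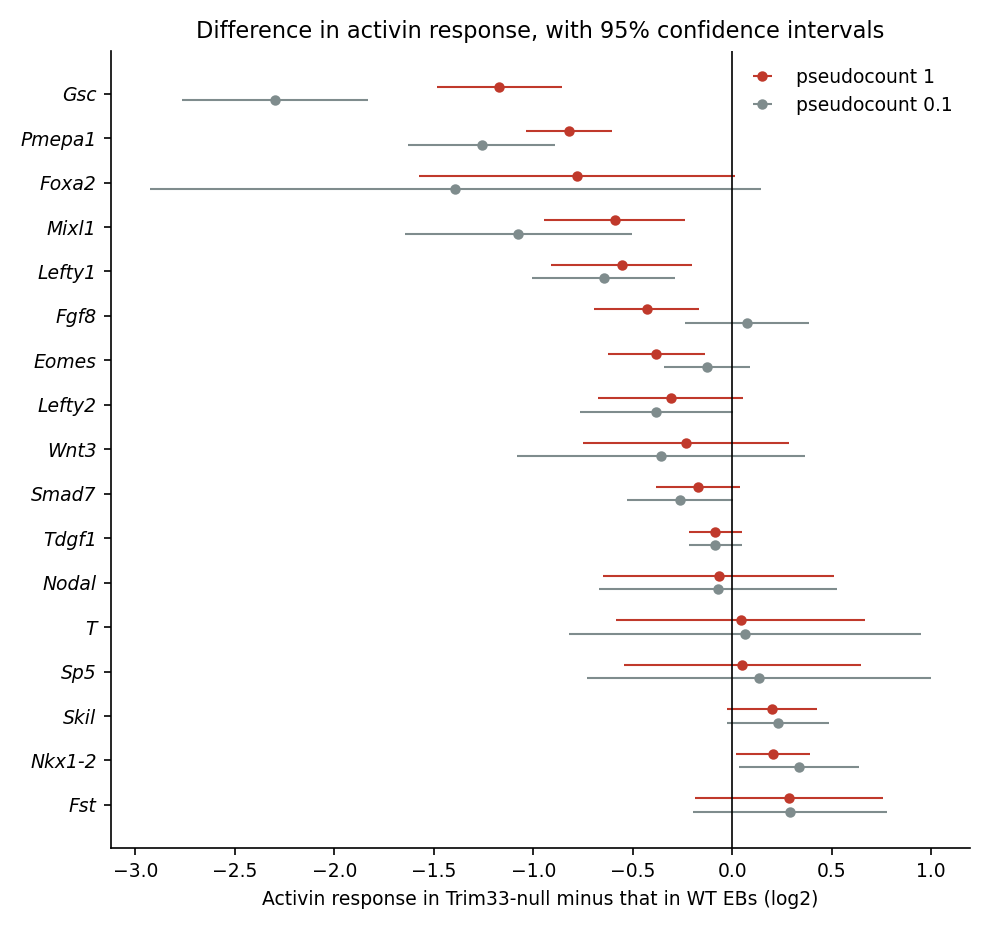
Trim33-null minus WT activin response (horizontal axis, log2) for genes of the Nodal/activin target and primitive streak lists that were tested, with 95% confidence intervals, computed on log2(FPKM + 1) in red and on log2(FPKM + 0.1) in grey. Gsc, Pmepa1, Mixl1 and Lefty1 stay below 0 on both scales, while Eomes and Fgf8 move to near 0 on the second.

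Among these targets, the streak genes Eomes and Fgf8 differed from Gsc and Mixl1 in what lay behind a similar interaction. Eomes, a T-box gene of the streak and mesendoderm, had 5.10 and 2.2 FPKM in Trim33-null EBs with activin and 2.03 and 0.896 with SB431542, against 23.0 and 13.9 FPKM in WT EBs with activin and 9.36 and 4.97 with SB431542. Every Trim33-null level was below both WT levels of its treatment, yet the ratios within pairs overlapped, at 2.51 and 2.46 in Trim33-null EBs and 2.46 and 2.80 in WT EBs. Eomes rose in each genotype (0.88 in Trim33-null and 1.27 in WT EBs, limma adjusted p = 0.00891 and 0.00177). Its interaction was -0.38 ± 0.10 with a pseudocount of 1 and -0.13 with a pseudocount of 0.1, since adding 1 shrinks the ratio of low values more.

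Fgf8, a growth factor gene of the streak, had 8.81 and 3.0 FPKM in Trim33-null EBs with activin and 1.91 and 0.461 with SB431542, against 28.6 and 17.6 FPKM in WT EBs with activin and 6.4 and 3.44 with SB431542. It was lower in Trim33-null EBs under each treatment, with ratios of 4.61 and 6.51 in Trim33-null pairs and 4.48 and 5.11 in WT pairs that overlapped. The interaction was -0.43 ± 0.11 (SE, limma unadjusted p = 0.00742, adjusted p = 1) and turned to 0.07 with a pseudocount of 0.1. Fgf15, a related growth factor gene of the epiblast, did likewise, at -0.50 ± 0.11 and -0.05, with ratios of 5.82 and 7.65 in Trim33-null pairs and 6.26 and 6.05 in WT pairs. For these 3 genes the ratios of activin to inhibitor overlapped between the genotypes, at lower levels in Trim33-null EBs.

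Mixl1, a homeobox gene of the streak, kept its difference. It had 0.787 and 0.491 FPKM in Trim33-null EBs with activin and 0.350 and 0.241 with SB431542, against 1.93 and 1.08 FPKM in WT EBs with activin and 0.337 and 0.261 with SB431542. The SB431542 levels overlapped and the WT activin libraries were the only ones above 1 FPKM. Mixl1 rose in WT EBs (0.93 ± 0.10, limma adjusted p = 0.0196) and had 0.33 ± 0.10 in Trim33-null EBs (limma adjusted p = 0.397). Its interaction was -0.59 ± 0.14 and grew to -1.08 with a pseudocount of 0.1, as that of Gsc did to -2.30, of Pmepa1 to -1.26, of Igfbp3 to -0.77 and of Lefty1 to -0.65.

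Foxa2, a forkhead gene of endoderm and node, had 1.21 and 0.103 FPKM in Trim33-null EBs with activin and 0.390 and 0.178 with SB431542, against 3.34 and 1.26 FPKM in WT EBs with activin and 0.601 and 0.396 with SB431542. The Trim33-null pairs went in opposite directions, so its interaction of -0.78 had an SE of 0.32. This SE was 0.071 with the numeral by treatment term (limma adjusted p = 0.292). T, the Brachyury gene of the streak, had interaction 0.04 with a 95% confidence interval of -0.58 to 0.67 and Sp5, a Wnt and streak target, 0.05 with an interval of -0.54 to 0.65, so differences within these intervals could not be resolved. With the numeral by treatment term the SEs of T and Sp5 were 0.12 and 0.22. Wnt3, a ligand needed for streak formation, rose by 1.31 in Trim33-null and 1.54 in WT EBs (limma adjusted p = 0.0287 and 0.0115), with an interaction interval of -0.75 to 0.29. Nkx1-2 had 0.17 in Trim33-null and -0.04 in WT EBs and passed in neither. Of 15 streak and mesendoderm genes 9 were tested. Of these, 3 rose in Trim33-null EBs, 5 in WT EBs and 5 on average, and 6 interactions were below 0 with a median of -0.38 (-0.13 with a pseudocount of 0.1).

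The genes that rose on average, known targets and others, had interactions below 0 slightly more often than all genes. Over the 213 genes that rose on average, the interaction had a median of -0.07 and 148 (69.5%) were below 0, against a median of -0.02 and 64.8% over all 11317 genes tested. Both Trim33-null pair differences lay below both WT ones in 98 of them (46.0%) and above in 21 (9.86%). Over all genes these shares were 19.6% and 7.64%. That background is not matched, since the 213 were chosen by a test on the same spread. The median response of the 213 was 0.34 and 0.37 in the Trim33-null pairs, against 0.40 and 0.45 in the WT pairs. The order of the pairs depended partly on scaling: under median-of-ratios scaling all genes had 13.8% below and 11.3% above. The 213 genes then had 91 (42.7%) and 24 (11.3%), with a median interaction of -0.05. By sign, 138 of the 213 (64.8%) were below 0 under that scaling, against 53.6% of all genes.

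In log2 units the difference grew with the size of the response, and the median response was smaller in Trim33-null EBs in each size class. The responses of both genotypes grew too, so this does not show a larger difference in proportion to the response. The 18 genes that rose by at least 1 on average had median responses of 1.45 in Trim33-null and 1.75 in WT EBs. Their interactions had a median of -0.31, 16 of 18 were below 0, and in 13 both Trim33-null pairs lay below both WT pairs, with 0 the other way. Over all genes tested 19.6% had the order below and 7.64% the order above, a background that is not matched to any of these size classes. That order was read on log2(FPKM + 1). Among the 13, the ratios of activin to inhibitor overlapped between the genotypes for Fgf8, Fgf15, Eomes and Irf1. The 2 above 0 were Pxdc1, at 0.19, and Rasd2, at 0.08, and each turned below 0 with a pseudocount of 0.1; Rasd2 also did so without the Trim33-null pair II or the WT pair I. Both genes, with Relt and Pkdcc below, were chosen after their values were seen. For 49 genes risen by 0.5 to 1 the median responses were 0.59 in Trim33-null and 0.68 in WT EBs. Their median interaction was -0.09, with 23 in the order below. For 146 genes risen by less the median responses were 0.28 in Trim33-null and 0.34 in WT EBs. Their median interaction was -0.05, with 62 in the order below. Of these 146, 96 (65.8%) were below 0, near the 64.8% of all genes. The median of the 18 was -0.28 to -0.35 with any 1 pair left out, and that of the 213 was -0.06 to -0.09. With a pseudocount of 0.1 the median of the 18 was -0.27.

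**Figure D4:**
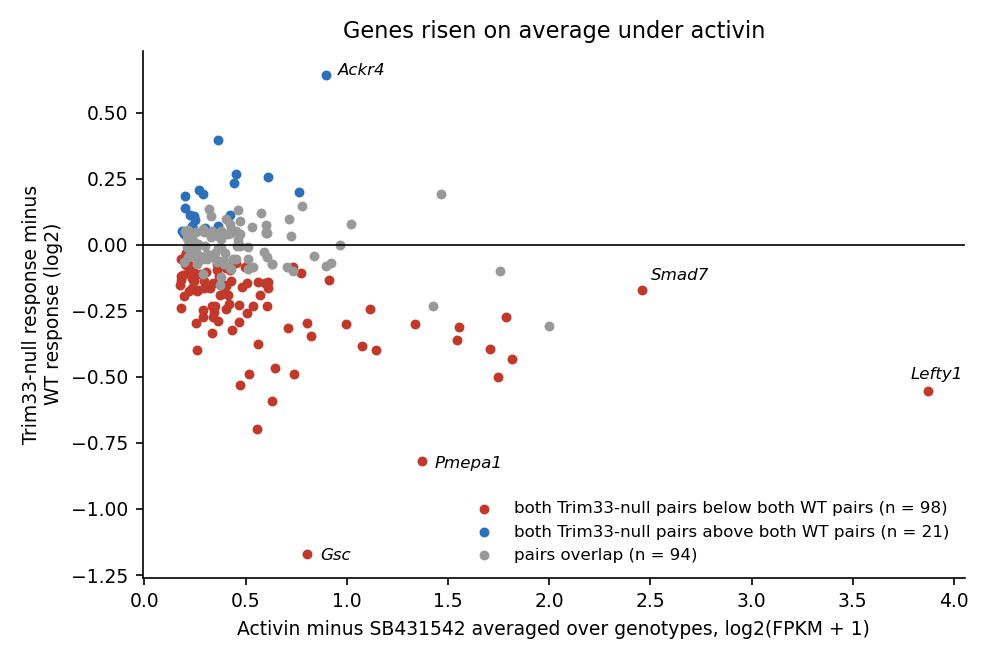
Trim33-null minus WT activin response (vertical axis, log2) against the response averaged over genotypes (horizontal axis, log2(FPKM + 1)) for the 213 genes risen on average, coloured by whether both Trim33-null pairs lay below (98 genes, red) or above (21 genes, blue) both WT pairs, with overlapping pairs in grey. Past an average of 1, no gene is blue and 13 of 18 are red, on a scale that shrinks the ratios of low values. Over all genes tested 19.6% had the order below and 7.64% the order above, a background that is not matched.

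Among the 18 was Hes1, a transcriptional repressor and Notch target. Hes1 had 8.36 and 9.63 FPKM in Trim33-null EBs with activin and 3.09 and 3.69 with SB431542, against 8.92 and 9.03 FPKM in WT EBs with activin and 2.48 and 2.63 with SB431542. Under activin the genotypes overlapped and under the inhibitor Trim33-null EBs were higher, and the response was 1.19 in Trim33-null and 1.49 in WT EBs, with an interaction of -0.30 ± 0.06 (SE, limma adjusted p = 1). The Wnt receptor gene Fzd10 had responses of 1.51 in Trim33-null and 1.91 in WT EBs, the interferon-regulated transcription factor gene Irf1 1.40 in Trim33-null and 1.71 in WT EBs, and the sulfotransferase gene Chst15 1.36 in Trim33-null and 1.72 in WT EBs. Relt, a receptor gene of the tumour necrosis factor family, had 0.94 in Trim33-null and 1.34 in WT EBs, and the secreted kinase gene Pkdcc 1.0 in Trim33-null and 1.24 in WT EBs. These responses passed limma with BH adjustment in each genotype, and in all 5 genes both Trim33-null pairs lay below both WT pairs. For Irf1 this rested on the scale. Its ratios overlapped, at 4.23 and 3.36 in Trim33-null and 4.73 and 3.86 in WT pairs. The Irf1 interaction of -0.31 became -0.20 with a pseudocount of 0.1. The ratios of the other genes did not overlap. Epha2, an ephrin receptor gene, had 1.71 in Trim33-null and 1.81 in WT EBs, and its increase in FPKM was larger in Trim33-null EBs, 18.4 against 13.9 in WT EBs. In 70 of the 213 genes the FPKM increase was larger in Trim33-null EBs, 18 of them with a smaller log2 response. Over all 11317 genes tested these counts were 3987 and 229, so the larger FPKM increase is not particular to the 213.

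The 98 genes divided by the level at which the genotypes differed. By the mean of log2(FPKM + 1), 29 were higher in Trim33-null EBs under both treatments, as for Lefty1 and Pmepa1, 50 were lower under both, as for Fgf8 and Eomes, and 19 were higher under SB431542 and lower under activin, as for Relt and Pkdcc. These classes use the sign of a mean difference without a margin. The activin libraries of the genotypes overlapped for Relt and Pmepa1, and the SB431542 libraries for Pkdcc. Over all 2221 genes with that order of pairs the counts were 871, 1012 and 338. Of the 213, 53 had an unadjusted interaction p under 0.05 in limma, 48 of them below 0, and 177 had a 95% confidence interval within 0.5 of 0 on either side. Over all genes 277 had such a p, 206 of them below 0.

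The 39 genes that fell on average had small interactions. Their interaction had a median of -0.0028 and 20 of 39 (51.3%) were below 0, against -0.02 and 64.8% over all genes, and for a gene that falls a smaller response is an interaction above 0. Both Trim33-null pairs lay below both WT pairs in 8 (20.5%) and above in 3 (7.69%), near the 19.6% and 7.64% of all genes. Spry4, which dampens signalling from receptor tyrosine kinases, fell in each genotype, by 0.54 in Trim33-null and 0.46 in WT EBs (limma adjusted p = 0.0316 and 0.0398). The 4 others with the largest decreases were the homeobox gene Gbx2, with -0.55 in Trim33-null and -0.64 in WT EBs, Larp7, which encodes a binding protein of the small nuclear RNA 7SK, with -0.40 in Trim33-null and -0.53 in WT EBs, Slc35d3 with -0.37 in Trim33-null and -0.53 in WT EBs, and Gm12666, a pseudogene, with -0.57 in Trim33-null and -0.64 in WT EBs. Their interaction intervals all included 0.

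Few pluripotency genes were called. Nanog, a core pluripotency factor, had 105 and 76.0 FPKM in Trim33-null EBs with activin and 54.0 and 44.9 with SB431542, against 112 and 84.1 FPKM in WT EBs with activin and 45.6 and 41.2 with SB431542. The genotypes overlapped under each treatment, and Nanog rose by 0.85 in Trim33-null and 1.15 in WT EBs (limma adjusted p = 0.016 and 0.00344), with an interaction of -0.30 ± 0.11. It was the 1 member called among 7 core genes, whose median interaction was -0.06 with 6 of 7 below 0. Among 13 naive genes Tbx3 was the 1 called, in WT EBs (0.36, limma adjusted p = 0.0375) and on average. Its Trim33-null response was similar, at 0.33 (limma adjusted p = 0.0619). Of the 13 naive interactions 12 were below 0, with a median of -0.08. The naive factor genes Klf2 and Klf5 had interactions of -0.27 and -0.31. Among 13 formative and primed genes Fgf15 rose in each genotype and Fgf5 on average, 10 interactions were below 0 and the median was -0.10. Dnmt3l, a DNA methylation cofactor, had 31.6 and 30.7 FPKM in Trim33-null EBs with activin and 34.9 and 32.7 with SB431542, against 11.2 and 11.2 FPKM in WT EBs with activin and 10.5 and 10.3 with SB431542. The Trim33-null level was far above WT under each treatment, while the interaction was -0.21 ± 0.06 (SE, limma adjusted p = 1).

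The lineage lists gave few calls. Of 11 definitive endoderm genes 5 were tested and Gsc rose in WT EBs, with 5 of 5 interactions below 0 and a median of -0.17. Of 10 mesoderm genes 3 were tested: Msx1, a homeobox gene, rose by 0.66 in Trim33-null and 0.95 in WT EBs, Snai1, a repressor of epithelial genes, rose in WT EBs by 0.47 and had 0.22 in Trim33-null EBs, and all 3 interactions were below 0 with a median of -0.26. Of 10 neuroectoderm genes 5 were tested. Olig2 rose in each genotype, by 0.84 in Trim33-null and 0.98 in WT EBs, and 3 interactions were below 0 with a median of -0.07. Of 7 germline genes 6 were tested, Prdm1 rose by 0.58 in Trim33-null and 0.63 in WT EBs, and 5 interactions were below 0 with a median of -0.11. The responses of Msx1, Snai1, Olig2 and Prdm1 that are said to have risen passed limma with BH adjustment.

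Lists of other pathways stayed near the median of all genes. Of 8 BMP targets 7 were tested, with 1 rise in Trim33-null and 2 in WT EBs and a median interaction of 0.01, 3 of 7 below 0. Of 11 Wnt targets 6 were tested, Fzd10 rose in each genotype and Axin2 on average, and the median was -0.04 with 3 of 6 below 0. All 10 genes of ERK feedback were tested, Spry4 fell in each genotype and Dusp4 on average, and the median was -0.04 with 8 below 0. Of 11 immediate early genes 9 were tested, Myc and Junb rose in each genotype and Ier2 on average, and the median was -0.02 with 5 of 9 below 0.

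Markers of other cell types differed between the libraries. All 7 tested fibroblast markers of 8 listed had an interaction below 0, with a median of -0.19 and 0 calls. Their summed level was 11.7 and 28.3 FPKM in Trim33-null EBs with activin and 12.3 and 34.9 with SB431542, against 7.03 and 10.9 FPKM in WT EBs with activin and 7.14 and 10.7 with SB431542. The 2 Trim33-null libraries of numeral II stood above the other 6, and the part of these cells in the interactions was not tested. Of 9 trophoblast markers 4 were tested with 4 interactions below 0 and a median of -0.11. Of these Krt8, a keratin gene of simple epithelia, had 29.8 and 42.5 FPKM in Trim33-null EBs with activin and 25.8 and 45.7 with SB431542, against 16.4 and 21.7 FPKM in WT EBs with activin and 14.1 and 18.6 with SB431542. The defining trophoblast markers Cdx2, Elf5, Gata3 and Plac1 were below 1 FPKM in every library. Of 9 extraembryonic endoderm markers only Sparc, a matrix protein gene, was tested, with an interaction of -0.25. Sparc had 26.8 and 42.9 FPKM in Trim33-null EBs with activin and 27.4 and 48.4 with SB431542, against 19.7 and 27.7 FPKM in WT EBs with activin and 20.1 and 21.9 with SB431542. Krt8 and Sparc were thus also highest in the Trim33-null libraries of numeral II. Sox7, Gata4, Gata6, Afp and Ttr were below 1 FPKM in every library. Neuroectoderm markers Sox1, Pax6 and Hes5 were too.

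Over all genes, the 10 below 0 with the smallest p among those with at least 5 FPKM in a group and pairs that did not overlap were Pmepa1, Igfbp3, Gm20767, Gm10139, Mycl, Gm9847, Foxi3, Ier5, Hes1 and Tcf15. Mycl, a Myc family gene, had 7.13 and 4.35 FPKM in Trim33-null EBs with activin and 5.54 and 2.96 with SB431542, against 15.8 and 14.1 FPKM in WT EBs with activin and 8.80 and 8.08 with SB431542. Trim33-null levels were lower throughout, and Mycl rose by 0.38 in Trim33-null and 0.75 in WT EBs (limma adjusted p = 0.0445 and 0.00273), with an interaction of -0.38 ± 0.07. Tcf15, a basic helix-loop-helix gene of mesoderm, had 11.7 and 13.3 FPKM in Trim33-null EBs with activin and 10.4 and 13.6 with SB431542, against 5.15 and 6.61 FPKM in WT EBs with activin and 3.53 and 4.47 with SB431542. Trim33-null levels were higher throughout, and Tcf15 rose in WT EBs by 0.46 (limma adjusted p = 0.027) with 0.06 in Trim33-null EBs (limma adjusted p = 0.789).

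The corresponding 10 genes above 0 included 3 pseudogenes. They were Gm3636, Gm10269, Klhl8, Gm8444, RP23-131N18.1, Gm17404, Gm17449, Gm16302, Gm3591 and Rpl7a-ps8, with interactions of 0.19 to 0.51 and limma adjusted p = 1 for each. Gm10269, Gm8444 and Rpl7a-ps8 are pseudogenes, whose reads can be shared with near-identical copies, so these values are uncertain. The same holds for the pseudogene Gm9847 among the 10 below 0. No type was known for RP23-131N18.1, Gm17404, Gm17449, Gm16302 and Gm3591. Gm8444 had 18.2 and 18 FPKM in Trim33-null EBs with activin and 13.7 and 13.2 with SB431542, against 12.1 and 13.4 FPKM in WT EBs with activin and 14.5 and 13.1 with SB431542. Only its Trim33-null activin libraries stood apart, above the other 6. Of the genes with an unadjusted p under 0.05, pseudogenes were 8 of 50 with a known type above 0 (16.0%) and 9 of 182 below 0 (4.95%), against 1.86% of all genes tested with a known type.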

How the data were processed

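RNA-seq of EBs was analysed from 1 table of FPKM that the authors deposited, with a column per library. The submitters' processing notes list Cufflinks 2.2.1, STAR 2.4.0, Bowtie2 2.2.2 and CASAVA 1.8 with build mm9, and name no role for each. For annotation, read filters and strandedness, nothing was given in the sources used here. Of the 10 columns the 8 EB columns were used. Of 29145 entries 113 with a repeated symbol were left out, the entry with the highest mean being kept, which left 29032.

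Values were tested as log2(FPKM + 1), a scale that understates the change of low genes, with limma 3.58.1 in R 4.3.3 (empirical Bayes with an intensity trend, BH adjustment over 11317 genes, threshold 0.05). The model had activin, the genotype by activin term and a block for each of the 4 genotype and numeral pairs, leaving 2 residual and 3.76 prior degrees of freedom. The code was tested on simulated data. Libraries of a numeral deviated together across genes, with a Pearson correlation of 0.909 in Trim33-null and 0.459 in WT EBs. The Spearman values were 0.872 in Trim33-null and 0.224 in WT EBs. This is the ground for the block, weaker in WT EBs, since the labels do not say what a numeral means. Libraries of a numeral did so across genotypes too, which the block within genotype does not model. The Pearson values were 0.440 under activin, 0.225 under SB431542 and 0.320 for the difference in response. Counts could not be recovered: 7.57% to 13.4% of low values fell on the commonest step between libraries, so depth is unknown.

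Named genes were every gene past the interaction threshold, the 10 in each direction with the smallest interaction p among those with a mean of at least 5 FPKM in a group and pair differences that did not overlap, the 10 largest average increases and 5 largest decreases past the threshold, all tested members of the target and streak lists, the called members or the 2 with the smallest p in other lists, and Trim33. Some genes that this rule names are not reported here. The members and lists were chosen with earlier results of these data known. Alternatives were no block, another pseudocount or filter, median-of-ratios scaling, no trend, the linear scale, a numeral by treatment term and leaving out each pair. With the block, leaving out a library leaves out its pair.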

Additional observations from a re-analysis of the deposited data

Results flagged for a closer look

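In 14 named genes every pair of a genotype moved one way and every pair of the other genotype the opposite way. Each had an interaction with limma adjusted p = 1, so the difference itself did not pass. Most of the 14 were named by a rule that asked for pairs that did not overlap and small interaction p-values, which favours this form. Among all 11317 genes tested 736 had it, 548 with Trim33-null pairs down and WT pairs up and 188 the reverse. Under median-of-ratios scaling, chosen after seeing the data, the counts were 352 and 301, so the imbalance depended on the scaling.

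Trim33-null pairs were down and WT pairs up in 9 of them. The interaction was -0.43 for Gm20767, -0.39 for Gm10139, -0.31 for Gm9847, -0.32 for Foxi3, a forkhead gene, and -0.33 for Ier5, an immediate early gene. It was -0.22 for Bmp4, -0.31 for Klf5, -0.21 for Dnmt3l and -0.15 for the platelet-derived growth factor receptor gene Pdgfrb. Pdgfrb is also a fibroblast marker, and the summed fibroblast markers were highest in the Trim33-null libraries of numeral II, whose part in this value was not tested.

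Trim33-null pairs were up and WT pairs down in the other 5. The interaction was 0.36 for Gm3636, 0.32 for Klhl8, 0.34 for Gm17404, 0.32 for Gm16302 and 0.27 for Rpl7a-ps8.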

How the results depend on the processing

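The interaction called 0 genes under every tested alternative that kept both pairs of each genotype. On the linear scale the increases were compared without a test. The other totals depended on the pairing, the filter and single pairs. With no replicate block the Trim33-null, WT and average totals were 13, 25 and 52, where the block gave 83, 123 and 252, and every gene called without the block was called with it. With no filter on low values they were 5, 23 and 68, and with a mean of at least 5 FPKM they were 49, 53 and 115. With 1 pair left out they ran from 15 to 221, from 87 to 189 and from 94 to 385, and the interaction calls from 0 to 1. The cause was not tested. The other pseudocount, median-of-ratios scaling and no trend kept the totals within 1.5 times.

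With any 1 pair left out, Gsc stayed between -1.35 and -0.99. These interactions took either sign: Nodal -0.41 to 0.27, Sp5 -0.33 to 0.43, Ski -0.032 to 0.0071, Tbx3 -0.068 to 0.0084, Dusp4 -0.031 to 0.071, Gbx2 -0.10 to 0.28, T -0.35 to 0.43, Junb -0.13 to 0.078, Rasd2 -0.15 to 0.30, Gm12666 -0.026 to 0.16, Fgf5 -0.15 to 0.13, Spry2 -0.0085 to 0.19, Fos -0.039 to 0.14, Ier2 -0.069 to 0.18, Trim33 -0.11 to 0.065, Spry4 -0.19 to 0.031, Wnt3 -0.56 to 0.093 and Myc -0.21 to 0.12. With a pseudocount of 0.1, Fgf8 turned to 0.075, Fgf5 to 0.013, Pxdc1 to -0.076 and Rasd2 to -0.069. Under median-of-ratios scaling, Ski turned to 0.0078 and Fgf5 to 0.0081. As differences of FPKM increases, Lefty1 turned to 205, Lefty2 to 27, Epha2 to 4.48, Sp5 to -0.078, Tbx3 to 0.546, Olig2 to 0.582, Dusp4 to -0.361, Junb to 0.525 and Trim33 to 0.161. A numeral by treatment term, added after seeing the data, also gave 0 interaction calls in limma, with 534 unadjusted p-values under 0.05.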
